A study of Gallus gallus with 6 samples.

Results

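The 9 genes described here encode proteins that carry calcium and phosphate across the intestinal epithelium, together with the vitamin D receptor that regulates several of them. They were taken by name from a table of 17623 genes. Of the 9 names, 7 stand in the table's symbol column: CALB1, ATP2B1, ATP2B4, VDR, SLC34A2, SLC20A1 and SLC20A2, each in 1 row. The other 2 were found only through the NCBI gene number in their description. SLC8A1 is listed under its older symbol NCX1, and the gene that RefSeq calls TRPV6 is listed without a symbol and described as subfamily V member 5. Both are reported beside the 7 and are left out of the counts over them.

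Tissue came from the ileum, the stretch of small intestine that ends at the caeca, of male Taiping chickens 2 months old. In the control group (CT, 3 libraries) the birds ate a basal diet of corn and soybean. In the probiotic group (MP, 3 libraries) they ate the same basal diet and drank water with 2 mL of probiotic per litre; the labels name neither the organisms in the probiotic nor the calcium, phosphorus or vitamin D content of the feed. The comparison asks how the supplement relates to gene expression in the ileum. The table gives 1 value per gene and group, the authors' mean of 3 libraries, as FPKM (fragments corrected for transcript length and library size) and as an estimated count. Values of single birds cannot be read from it, and the labels do not say whether a library is 1 bird or a pool. No spread between birds, standard deviation or test across birds could therefore be had for any value below, and no difference has a replicate check.

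Calcium crosses the enterocyte in steps. It enters through channels of the brush border such as TRPV6, is bound and ferried by the buffer protein calbindin, and is pumped or exchanged out at the basolateral side by plasma membrane calcium ATPases and a sodium-calcium exchanger. Vitamin D hormone, acting through VDR, raises calbindin in the chicken intestine, a classic response in this species. Calcium also passes between cells through tight junctions. Phosphate enters with sodium through SLC34A2 at the brush border and through SLC20A1 and SLC20A2, which are found in most tissues. In birds much of the regulated calcium uptake takes place in the duodenum, upstream of the ileum.

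In the ileum the CT and MP means of the 7 genes found by symbol lay close together. Without a spread between birds, equal expression cannot be shown. Of these 7 genes, 0 reached a 1.5-fold difference in either direction. Their log2 differences (MP minus CT, on log2(FPKM + 1)) ran from -0.16 for ATP2B4 to 0.16 for VDR. A minimum FPKM of 1, in CT or in MP, was met by 12828 genes, of which 4.84% reached 1.5-fold, 2.87% higher and 1.97% lower in MP. All 7 passed that minimum in both groups. With so few genes, a count of 0 is what a share that small would usually give. At a lower threshold of 0.32 in log2, which 19.7% of all genes reached, the count was also 0 of 7. The median of the 7 was -0.06, and that of all genes was -0.07.

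The levels fell into a wide order that was nearly the same in both groups. FPKM is scaled to transcript length, so it can be compared between genes. CALB1 was the highest, followed by ATP2B1; ATP2B4, VDR and SLC20A1 lay close together below them; SLC20A2, NCX1 and SLC34A2 were the lowest with a signal. ATP2B4 stood just above VDR in CT (FPKM 35.3 and 31.6) and just below it in MP (31.4 and 35.4). Likewise NCX1 stood above SLC34A2 in CT (7.45 and 6.04), and in MP their FPKM values of 5.88 and 6.05 had overlapping counting intervals. Whether any of these neighbours differ beyond the spread between birds cannot be read from group means.

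**Figure D1:**
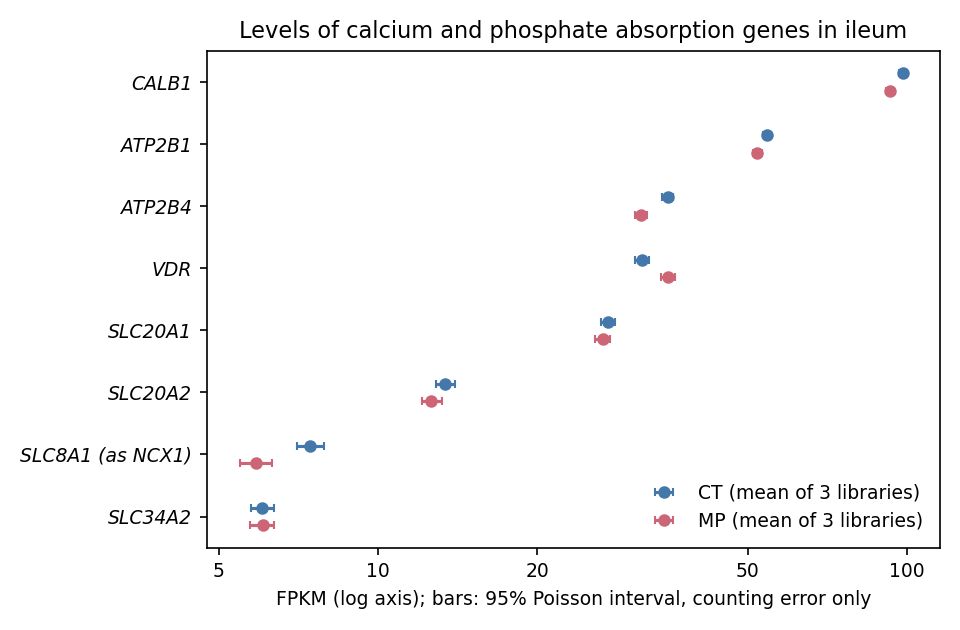
FPKM in the control (CT, blue) and probiotic (MP, red) groups for the 8 genes with a signal, on a log axis; each point is the authors' mean of 3 libraries and each bar a 95% Poisson interval for counting error only, with no variation between birds. CALB1 is the highest at 98.3 and 92.9, SLC34A2 is the lowest in CT, and the pairs of points lie close together.

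Calbindin (CALB1, ENSGALG00000032282), the calcium buffer of the absorbing cell, had an FPKM of 98.3 in CT against 92.9 in MP. Over the 3 libraries of each group this rests on 15868 and 13990 estimated counts. After division by the depth ratio of 0.929, the count ratio of MP to CT came to 0.949, and its exact 95% counting interval (Clopper-Pearson, conditional on both counts) ran from 0.928 to 0.971. Intervals of this kind cover counting error only, because reads from PCR are not independent molecules and differences between birds are not in them. At such depths they exclude equality easily: they did so for 66.9% of the 12828 genes and for 5 of the 7. The intervals also take scaling by library totals as given. With median-of-ratios scaling the log2 difference of CALB1 was 0.00, so the count of 5 depends on the scaling. CALB1 ranked 810 among the 12828 genes by mean FPKM, above 93.7% of them.

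The vitamin D receptor gene (VDR, ENSGALG00000033090) encodes the nuclear receptor that binds the hormone. It had an FPKM of 31.6 in CT against 35.4 in MP, a log2 difference of 0.16 and a count ratio of 1.10 (1.05 to 1.15). VDR and SLC34A2 were the 2 of the 7 that were higher in MP, SLC34A2 at a log2 difference of 0.00. Over all genes 37.7% were higher, so this count does not set VDR apart. The ratio of VDR to CALB1 was 0.322 in CT and 0.381 in MP. A single factor for a whole group, as in median-of-ratios scaling here, cannot change this ratio. Scaling each library on its own could change it, but group means do not allow that. With median-of-ratios scaling VDR lay at 0.23 in log2 and CALB1 at 0.00. On counts the VDR to CALB1 ratio in MP was 1.16 times that of CT (counting interval 1.10 to 1.22). How many other pairs of genes have an interval that excludes equality was not counted, so this interval does not set the pair apart. VDR lay near the middle of all genes by size of difference, whatever its sign (percentile 47.8).

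The entry channel gave no signal. The row that RefSeq assigns to TRPV6 (ENSGALG00000014746, NCBI gene 418307) is listed at 0 in both groups, for FPKM and for counts. A count of 0 over the 3 libraries allows up to 3 counts, or 0.0583 CPM (counts scaled to the library total) in CT and 0.0628 in MP, against 308 and 293 CPM for CALB1. Both values are limits from counting error only. In all, 1146 genes of the table are listed at 0 in both groups. Of 145 genes for ribosomal proteins, proteasome subunits and complex I, which every cell uses, 0 are listed at 0 in either group. Such widely used genes cannot show why the TRPV6 row is at 0, which was not tested. The description in the table and the RefSeq symbol disagree on whether the row is subfamily V member 5 or 6, so the value belongs to the row, whichever name it takes.

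On the exit side, the plasma membrane calcium ATPases pump calcium out of the cell at the cost of ATP. ATP2B1 (ENSGALG00000030550), the pump generally tied to absorption in the gut, had an FPKM of 54.3 in CT against 52.1 in MP. Its count ratio was 0.974 (0.949 to 0.999). ATP2B4 (ENSGALG00000003601), a pump also known from smooth muscle, had 35.3 and 31.4, and its count ratio was 0.891 (0.862 to 0.921). Both pumps lay a little lower in MP, ATP2B4 by more, but with median-of-ratios scaling ATP2B1 lay at 0.02 and ATP2B4 at -0.09. The ratio of ATP2B4 to ATP2B1 was 0.650 in CT and 0.602 in MP on FPKM. On counts the MP value was 0.915 times that of CT (counting interval 0.877 to 0.953). For this pair too, the share of gene pairs with an interval that excludes equality was not counted.

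The sodium-calcium exchanger gene, listed as NCX1 (ENSGALG00000008544; SLC8A1 in RefSeq, NCBI gene 395760), had the widest difference of the 8 genes with a signal. Its FPKM was 7.45 in CT and 5.88 in MP, a log2 difference of -0.30, from 1120 and 823 counts. The count ratio was 0.791 (0.722 to 0.866), still short of 1.5-fold. Outside the gut epithelium this exchanger is best known from heart, smooth muscle and nerve. By size of difference it lay at percentile 76.6 of all genes, which is not an extreme place.

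Tissue other than epithelium was measured in the same libraries. All 10 smooth muscle markers were lower in MP, or 9 of 10 with median-of-ratios and upper-quartile scaling, from -0.75 to -0.01 in log2, with a median of -0.38 and a summed FPKM of 4090.2 in CT and 2889 in MP; MYH11, the smooth muscle myosin, had 305 and 232. All 10 fibroblast markers (median -0.51, summed FPKM 1458 and 1058), all 10 endothelial markers (median -0.30, 379.9 and 306) and all 9 T cell markers found (median -0.27, 679 and 569) were lower too. Of 8 neuron and glia markers at the minimum, 7 were lower, or 3 with median-of-ratios scaling (median -0.04, 36.5 and 32.8). Of 13 enterocyte markers found, 9 were higher and 4 lower (median 0.11). With median-of-ratios scaling 2 were lower, and 3 with upper-quartile scaling or library totals. Villin, VIL1, had 325 and 405, while the summed FPKM of the 13 was 9331 and 8452. That sum holds FABP6, the ileal bile acid binding protein, named after its values were seen, at 4081 and 2669. No marker at the minimum was at 0 in either group. NCX1 (-0.30) and ATP2B4 (-0.16) were lower too, as were CALB1, ATP2B1, SLC20A1, SLC20A2 and 62.2% of all genes. ATP2B4 lay nearer equality than the medians of the muscle, fibroblast, endothelial and T cell markers, and further from it than the neuron and glia median (-0.04). By size of difference ATP2B4 was at percentile 49.3 of all genes. NCX1 lay at the endothelial median of -0.30. The part of muscle, connective tissue and vessels in the difference of any of these genes was not tested. In a piece of tissue, fewer cells of a type and less RNA per cell cannot be told apart.

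The group means of the 3 phosphate carriers also lay close together. SLC34A2 (ENSGALG00000014372), the sodium-phosphate cotransporter of the intestinal brush border, had an FPKM of 6.04 in CT against 6.05 in MP, from 1554 and 1433 counts. The count ratio of 0.993 had a counting interval reaching from 0.923 to 1.07. In size of difference it lay at percentile 0.3 of all genes. SLC20A1 (ENSGALG00000013740) had 27.2 and 26.6, a count ratio of 0.981 (0.937 to 1.03). SLC20A2 (ENSGALG00000038336) had 13.4 and 12.6, a count ratio of 0.939 (0.884 to 0.996).

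The intervals of SLC34A2 and SLC20A1 span equality, and the interval of SLC20A2 ends just below it. The data therefore leave room for a depth-scaled difference of SLC34A2 down to 0.923 or up to 1.07 from counting alone, and an unknown further amount from variation between birds. Per length of transcript, SLC20A1 stood above SLC34A2 in both groups, with an FPKM ratio of 4.50 in CT and 4.40 in MP. SLC20A2 stood at 0.492 of SLC20A1 in CT and 0.475 in MP. Counting intervals for the change of these ratios, 0.907 to 1.08 and 0.888 to 1.03, span 1. Transcript levels say nothing of the amount or place of the proteins.

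**Figure D2:**
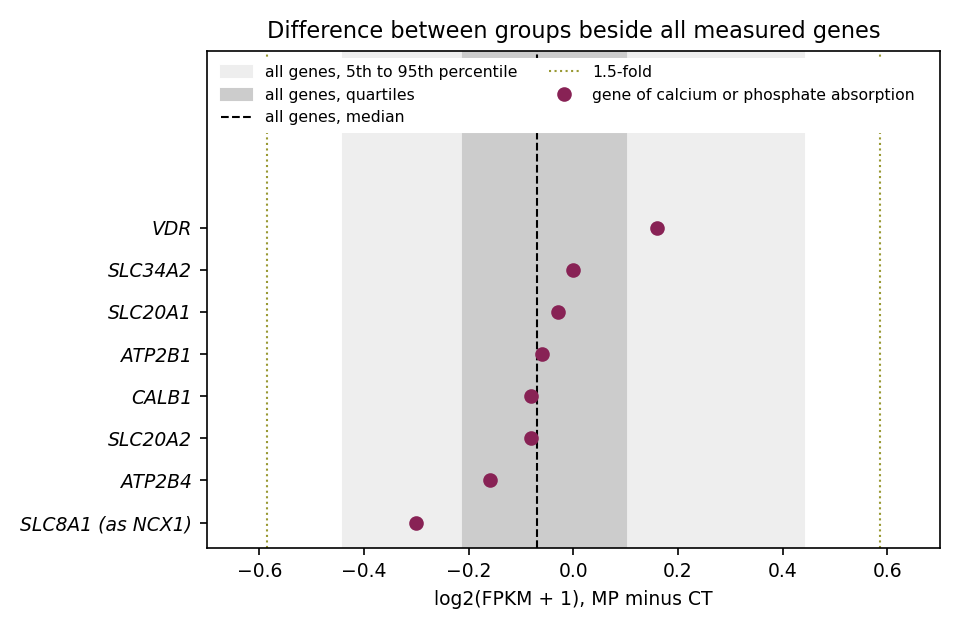
Difference of each gene on log2(FPKM + 1), MP minus CT (points), over the spread of the 12828 genes at the minimum FPKM of 1 (light band, percentiles 5 to 95; dark band, quartiles; dashed line, median of -0.07; dotted lines, 1.5-fold). All points lie inside the light band; VDR at 0.16 and NCX1 at -0.30 lie outside the quartiles of -0.21 and 0.10.

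Of the 7 genes, 5 lay lower and 2 higher in MP, SLC34A2 by a margin that rounds to 0.00. This is close to the whole table, in which 62.2% of genes were lower. The direction of such small differences follows the scaling. With library totals 6 of the 7 were lower and with upper-quartile scaling 4. With median-of-ratios scaling, which moves the median gene from -0.07 to 0.00, 3 of the 7 were lower, with ATP2B1 at 0.02 and SLC20A1 at 0.04. VDR stayed higher and CALB1, ATP2B4, SLC20A2 and NCX1 stayed lower under each scaling tried. Median-of-ratios and upper-quartile scaling only moved MP up, the median gene by 0.07 and 0.04, so neither could turn VDR lower. That VDR stayed higher under them is therefore no check of its direction. With median-of-ratios scaling CALB1 was lower by a margin that rounds to 0.00. A pseudocount cannot change the direction of a difference.

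Most of the genes have a property that their choice did not use, a high count per unit of FPKM. Transcript lengths themselves were not read. The count obtained per unit of FPKM rises with transcript length, and ATP2B1, ATP2B4 and SLC34A2 were in the highest decile (decile 10) of the 12828 genes on this measure, SLC20A2 in decile 9, CALB1 and NCX1 in decile 8, SLC20A1 in decile 7 and VDR in decile 6. Across all genes the median log2 difference went from 0.12 in the lowest decile to -0.15 in the highest. Against the median of its own decile, 6 of the 7 genes lay above and ATP2B4 lay just below (-0.16 against -0.15). CALB1 at -0.08 compared with -0.11 in its decile, ATP2B1 at -0.06 with -0.15, and SLC34A2 at 0.00 with -0.15. VDR at 0.16 compared with -0.08. Within each decile as many genes lie above the median as below it, and the offsets are small, so these values are a description only.

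**Figure D3:**
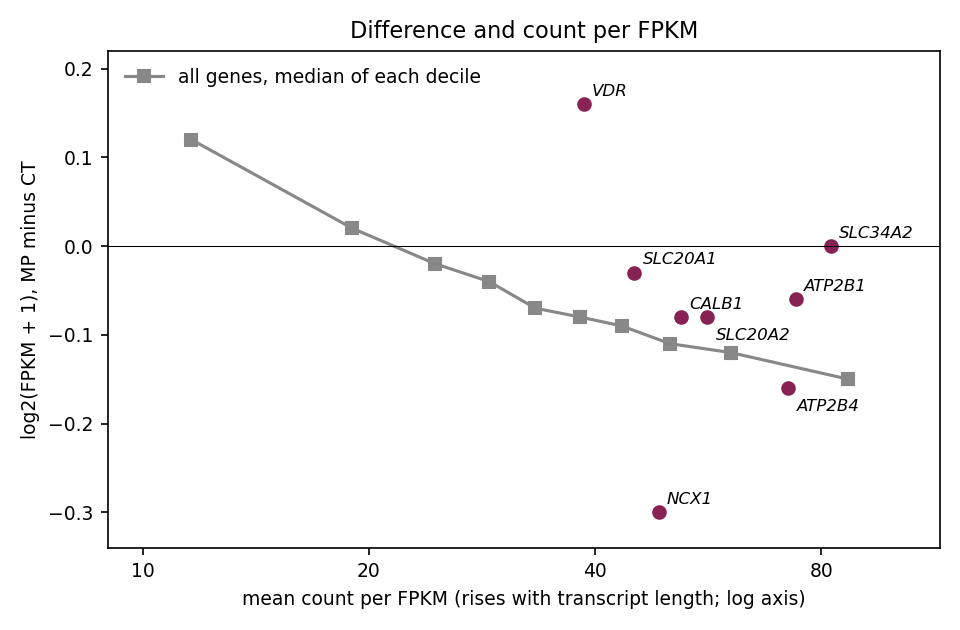
Difference on log2(FPKM + 1), MP minus CT, against the mean count per FPKM, which rises with transcript length (log axis); grey squares are medians of deciles of 12828 genes, purple points are the 8 genes with a signal. The medians go down from 0.12 to -0.15, and VDR lies furthest above and NCX1 furthest below the line.

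Partners of VDR and hormones of mineral balance formed a list of 19 names, of which 16 were found and 12 had FPKM of at least 1. RXRB, CYP24A1 and CYP27B1 were not found, so the list says nothing of them. Of the 12, 6 were higher and 6 lower, with a median of -0.03, and 0 reached 1.5-fold. Among all genes 62.2% were lower and 4.84% reached 1.5-fold, so with 12 genes these counts do not set the list apart. PDIA3, a protein folding enzyme also described as a membrane binder of vitamin D hormone, had the highest level at 408 in CT and 359 in MP. NCOA1, a coactivator of nuclear receptors, had 38.1 and 35.7. RXRA, the receptor that pairs with VDR on DNA, was at 32.9 and 34.1 (count ratio 1.04, 0.987 to 1.09); it was named after its values were seen. The calcium-sensing receptor gene CASR, also named afterwards, lay under the minimum at 0.873 and 0.347, and is not among the 12. Its 138 and 52 counts gave a count ratio of 0.406 (0.289 to 0.562). KL, likewise under the minimum and named afterwards, went the other way, with a count ratio of 1.54 (1.15 to 2.08). The remaining genes found under the minimum, CYP2R1 and PTH1R, also named afterwards, had intervals that span equality. Their count ratios were 1.17 (0.922 to 1.49) and 1.01 (0.673 to 1.53).

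Other calcium channels, pumps, exchangers and binding proteins numbered 25 at the minimum, of 31 found among 34 names. Of these, 18 were lower and 7 higher, with a median of -0.13, and 0 reached 1.5-fold. Over all genes 62.2% were lower and 4.84% reached 1.5-fold, so these counts do not set the list apart. The highest levels belonged to the calcium sensor calmodulin, CALM2 (1156 in CT and 1265 in MP), and to the small calcium-binding protein S100A6 (301 and 351). The widest difference was that of TRPV2, at 26.0 and 17.7 (-0.53), a cation channel best known from immune and muscle cells. At 4.92 and 4.11, ATP2B2, a further plasma membrane calcium ATPase matched by NCBI gene number, stood far under ATP2B1 and ATP2B4. TRPV2 and ATP2B2 were named after their values were seen.

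On the path between cells 1 gene passed 1.5-fold, as 4.84% of all genes did, and it was the single one in the 4 pathway lists. A share of that size would leave a few genes past the threshold in lists of this length, so the count is no result about the path. CLDN2, a claudin that forms a pore for small cations, calcium among them, went from an FPKM of 56.4 in CT to 91.8 in MP. The difference was 0.69 in log2 and the count ratio 1.60 (1.54 to 1.66). Of the 9 genes of this list at the minimum, of 11 found among 12 names, 3 were higher and 6 lower, with a median of -0.04. The share lower over all genes was 62.2%. CLDN3, a sealing claudin, had 186 and 208, and occludin, OCLN, had 137 and 123. CLDN12, another claudin linked to calcium passage in mammals and named after its values were seen, was at 4.73 and 4.57, while CLDN16, also named afterwards, was listed at 0 in both groups.

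Other genes of phosphate handling numbered 15 at the minimum, of 17 found among 19 names, with 9 lower and 6 higher and a median of -0.11. None of them reached 1.5-fold. Over all genes 62.2% were lower and 4.84% reached 1.5-fold, so with 15 genes these counts do not set the list apart. SLC9A3R1, a scaffold that holds transporters at the brush border, had 400.4 and 403, a count ratio of 1.01 (0.994 to 1.02). SLC25A3, which brings phosphate into mitochondria, had 301 and 251. Intestinal alkaline phosphatase, which frees phosphate from dietary compounds, was matched to ALPI by NCBI gene number and had 243 and 286 (0.23 in log2). Nearest to the threshold was PPA1, an inorganic pyrophosphatase, at 109 and 155 (0.51); ALPI and PPA1 were named after their values were seen. SLC34A1, the renal relative of SLC34A2, was listed at 0 in both groups and was named afterwards. XPR1, which exports phosphate from cells and was also named afterwards, was at 52.6 and 43.9.

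**Figure D4:**
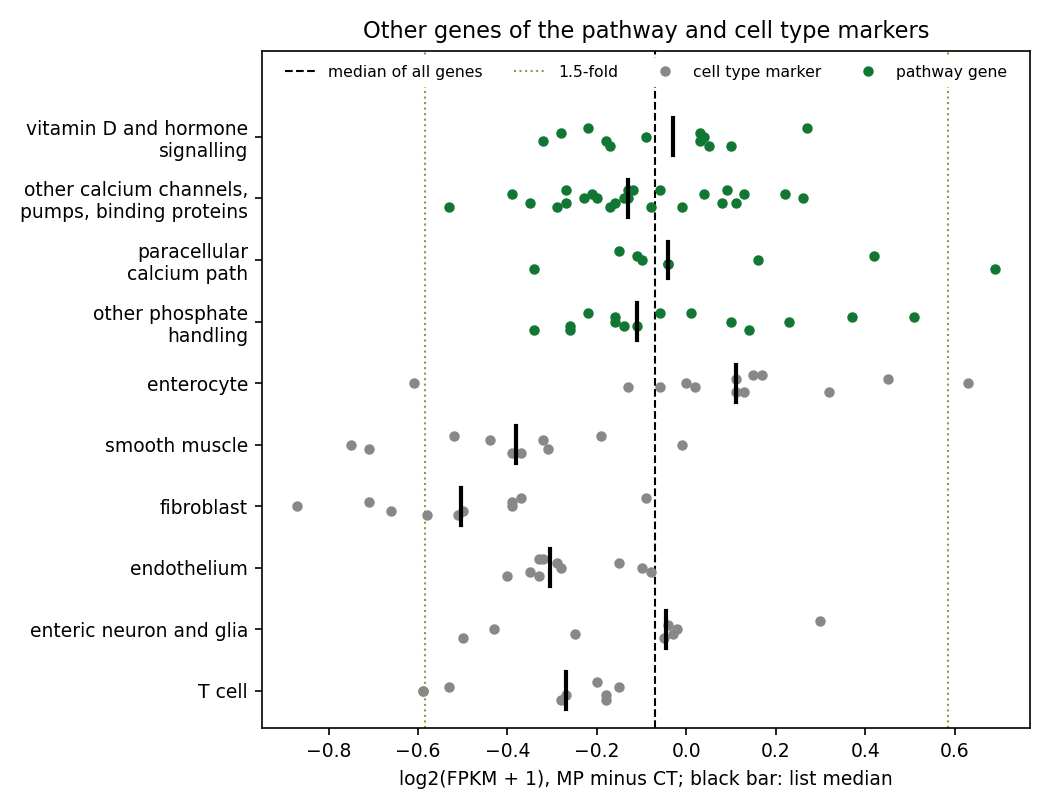
Difference of single genes on log2(FPKM + 1), MP minus CT, for 4 lists of other genes of calcium and phosphate handling (green) and 6 lists of cell type markers (grey), for genes at the minimum FPKM of 1; black bars are list medians, the dashed line is the median of all genes and dotted lines mark 1.5-fold. The pathway lists centre between -0.13 and -0.03 with CLDN2 alone past 1.5-fold at 0.69, whereas fibroblast markers centre at -0.51 and smooth muscle markers at -0.38.

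The differences of CLDN2 and of the carriers may be set side by side. CLDN2 lay beyond the 1.5-fold line, while CALB1, both calcium ATPases and the phosphate carriers lay within 0.32 of equality in log2. Whether CLDN2 differs from them beyond the spread between birds was not tested. CLDN2 was named for passing that line, so it does not stand for the path between cells. On that path 6 of 9 genes were lower and 3 higher. In the table's own KEGG annotation, ATP2B1, ATP2B4 and NCX1 stand in the calcium signalling pathway, and the rest of the set carries no pathway entry. Genes whose pattern is most like that of these carriers are not named, since 2 group means give no pattern to compare.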

How the data were processed

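RNA sequencing of ileum gave 6 libraries, 3 per group. Per the labels' protocols, RNA was extracted with TRIzol and libraries were made with a kit described as one for small RNA, although the table covers messenger RNA genes. Per the submitters' processing notes, the tools were HISAT2, Bowtie2, DESeq2, StringTie 1.3.1 and fastp 0.18.0, with no roles stated. Coordinates are left out, because no source used here gives the genome build. Per the file headers, the authors deposited FPKM and a count per gene and group. The third decimal is 0, 3 or 7 in 100.0% of the values, as in means of 3, and the deposited counts are therefore read as mean expected counts; they sum to 17150865 in CT and 15928865 in MP. A further 4 columns belong to no sample of the series and were not used.

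Because the table holds group means, no test across libraries could be run. Differences are log2(FPKM + 1), MP minus CT, with a pseudocount of 1 that understates differences of genes with low values. Ratios use 3 times the mean count, rounded, and library totals. Intervals are at 95% (Python 3.11.15, SciPy 1.17.1). Their calculation was checked on simulated Poisson counts, which follow the model that the intervals assume. That check therefore says nothing of variation between birds or of reads from PCR. Intervals for a change of a ratio between genes use the normal approximation on the log scale. Names were matched by symbol, then by NCBI gene number through the RefSeq table of GRCg7b.

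The genes and lists were chosen with earlier results of these data known. Named from each pathway list were genes at 1.5-fold or more and the 2 with the highest FPKM. Marker lists are given by their medians, with the first gene listed (MYH11, VIL1) where a value is needed. Others are marked as named after their values were seen.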

Additional observations from a re-analysis of the deposited data

How the results depend on the processing

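No paired analysis was possible because only means over each group were deposited in the table used. For the same reason the count tests and the omission of single libraries were not run. Under every alternative tried, 0 of the 7 genes found by symbol passed the fold in either direction. Those lower in MP numbered 5 as reported, 6 with library totals, 4 with upper-quartile scaling and 3 with median-of-ratios scaling, which by construction moves the median gene up by 0.07. With the row listed as NCX1, added after seeing the data, 6 of 8 were lower. Among the 4 pathway lists, a threshold of 0.32 in log2 gave 3 of 25 other calcium genes lower. In phosphate handling 2 of 15 were higher and 1 lower, and on the paracellular path 2 of 9 were higher and 1 lower. In vitamin D signalling 1 of 12 was lower. Over all genes 19.7% reached this threshold, so with so few genes these counts do not set the lists apart. A lower threshold takes in more genes by construction. With median-of-ratios scaling 1 gene of phosphate handling was higher past 1.5-fold. The other 130 counts stayed within 1.5 times, but many of them could not move. A pseudocount cannot change which genes are lower in MP, and neither can the choice of fold. The 130 are therefore no measure of how stable the results are. Among recomputed differences of single genes, 41 stayed within their counting error and 7 left it, all 7 with median-of-ratios or upper-quartile scaling. With median-of-ratios scaling ATP2B1, ATP2B4, CALB1, SLC20A1 and VDR left it. Many of the 41 come from summing rows, which could not move them, or from pseudocounts, which moved them little. The 41 are therefore no measure of stability either. The log2 range over settings was 0.14 to 0.23 for VDR, -0.08 to 0.00 for CALB1 and -0.34 to -0.23 for NCX1. No symbol among the 7 repeats, so summing rows changed nothing. Depth limits SLC34A2 and NCX1 most, at 1554 and 1120 counts in CT.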
